A study of Mus musculus with 3 samples.

Results

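The genes described are 50 that drive or mark the cell cycle and DNA replication, among 18194 genes named on the array. They were chosen by name, and each was read from the probe sets annotated to that 1 gene symbol. All 50 had such a probe set, 119 in all, and a gene's level is the signal of its brightest one, by mean log2(signal + 1) over the arrays. The tissue was ureter, the tube between kidney and bladder, dissected on embryonic day 15 (Theiler stage 23) from wild-type mice of the FVB/N strain. The samples form 1 group of 3 arrays, called replicates 3, 8 and 9 after the labels, with no second group to compare. The labels give the sex as unknown and state that samples were not pooled, but do not tell whether different embryos or litters were used, and part of the spread between samples may therefore be technical.

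The cell cycle is driven by cyclin-dependent kinases (CDKs), which are switched on by cyclins and held back by CDK inhibitors. D-type cyclins with Cdk4 or Cdk6 phosphorylate the retinoblastoma protein in G1 and so free E2F factors, which transcribe genes for S phase, while origins are licensed by loading the MCM helicase. Cyclin A and B kinases, Polo and Aurora kinases, the spindle checkpoint and kinesin motors then carry the cell through mitosis. Growing embryonic organs hold many dividing cells, and their epithelium and mesenchyme leave the cycle as they differentiate. In whole tissue, fewer dividing cells and less of a transcript per cell cannot be told apart.

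Each array had 45101 probe sets, with median signals of 234, 198 and 273 in replicates 3, 8 and 9. Precision is limited by there being 3 arrays. A gene was called above background where its signal exceeded the 95th percentile of 55 measured genes that belong to organs not dissected here (eye, testis and pituitary among them), on all 3 arrays. Replicates 3, 8 and 9 had background levels of 388, 400 and 502. Brightness also depends on the probe set, so the signals below do not rank genes by transcript number. Of 8 urothelial markers 5 were above background, with Upk3a, Upk2 and Upk1a not, as were 3 of 6 smooth muscle markers (Acta2, Actg2 and Tagln) and 4 of 5 markers of ureteric mesenchyme. Markers of other tissues were also above background, namely all 6 of hepatocytes, all 5 measured of erythroid cells, all 5 of macrophages and 5 of 6 of skeletal muscle. Some of these cell types divide in the embryo, and the cell of origin of the transcripts below was not tested.

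Of the 50 genes, 49 were above background on all 3 arrays, against 53.6% of all named genes. The list was picked from genes known to be used by dividing cells, so this share describes it and is no test. The exception was the inhibitor gene Cdkn1b. Their spread between replicates was close to that of the array. The median SD over the 3 arrays was 0.27 (log2), against 0.28 for all genes above background, and 2 of the 49, Ccnd2 and Birc5, had a range of at least 1, a 2-fold difference, against 14.2% of all genes above background. With all probe sets of a gene averaged, 8 of 42 genes had such a range, against 15.1% of all genes, so the low count depends on reading the brightest probe set.

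**Figure D1:**
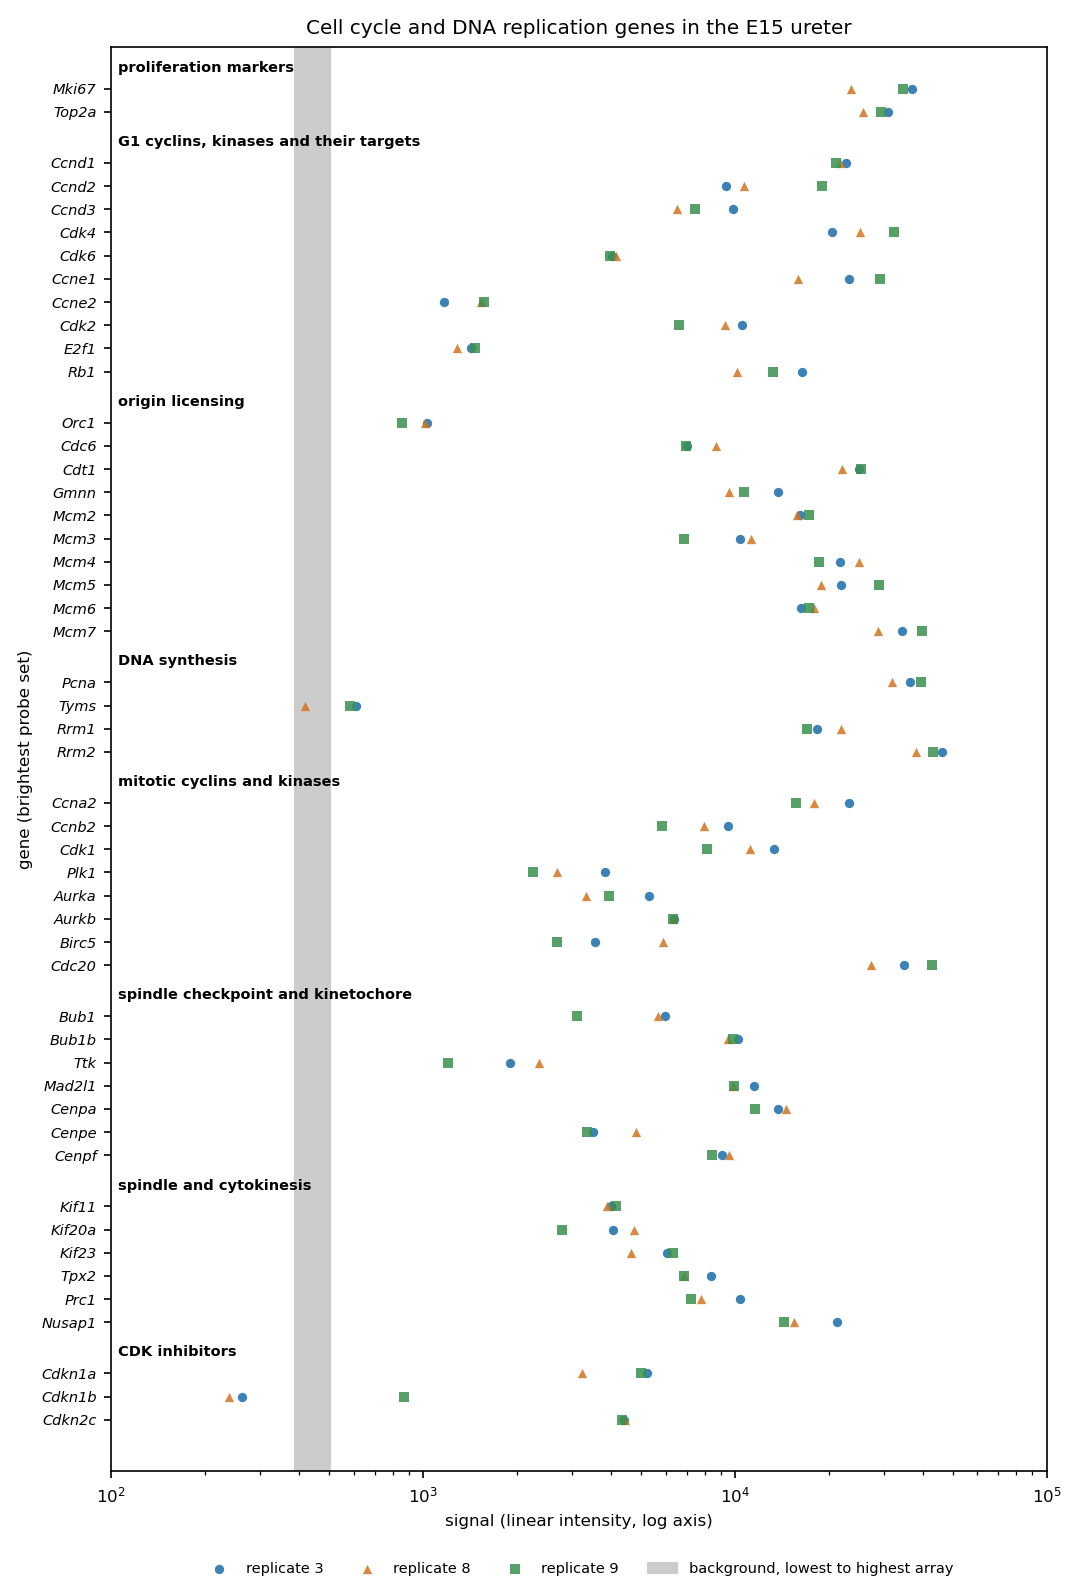
Signal of each cell cycle gene in replicates 3, 8 and 9 (linear intensity on a log axis, brightest probe set), grouped by role, with the grey band spanning the background of the 3 arrays (388 to 502). Only Cdkn1b falls to the left of the band in some replicates, and the Tyms points lie near it.

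Both general markers of proliferation were far above background on every array. Mki67, whose protein coats mitotic chromosomes and is absent from resting cells, had signals of 37106, 23509 and 34680 in replicates 3, 8 and 9 (mean 31765 ± 7252, SD, n = 3, as for every mean below). Top2a, the topoisomerase that untangles replicated DNA, had 31024, 25829 and 29465. Replicate 8 was the lowest for both genes. The log2 range was 0.66 for Mki67 and 0.26 for Top2a. Top2a rests on 1 of its 3 probe sets, since the others were not above background on all arrays.

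All 10 genes of G1 and its targets were above background. The D-type cyclins link growth signals to the cycle. Ccnd1 had signals of 22681, 21697 and 21182 (21853 ± 762), a range of 0.10 on the log2 scale by its brightest probe set. Its other probe sets above background gave 8178, 13855 and 11676, and 417, 907 and 1129, both lowest in replicate 3. Ccnd2 had 9365, 10710 and 19065, so that replicate 9 stood above the other replicates by its brightest probe set (range 1.03). Ccnd3 had 9857, 6502 and 7442, with replicate 3 highest. The replicate with the highest Ccnd1 signal depended on the probe set.

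Ccnd2 showed the widest variation of the G1 genes, and its probe sets agreed on the direction. All 6 of its probe sets above background were highest in replicate 9, and the level in replicate 9 over that in replicate 3 ran between 1.29 and 11.9 times. The next brightest probe sets gave 3931, 6030 and 19331, and 2885, 5152 and 16708. The brightest, at 2.04 times, gave the third smallest of the 6 ratios. Control probe sets on the array compare the 5′ with the 3′ end of 1 transcript. The 5′ over 3′ ratio in replicates 3, 8 and 9 was 0.134, 0.154 and 0.250 for beta-actin and 0.0955, 0.168 and 0.377 for pyruvate carboxylase, highest in replicate 9. It was 0.0530, 0.0662 and 0.0611 for Gapdh and 0.130, 0.104 and 0.139 for the transferrin receptor, with no such step. The 5′ signals of pyruvate carboxylase (141, 142 and 322) and the transferrin receptor (246, 123 and 301) were below background on every array. The ratios of these controls are therefore imprecise. The part of RNA quality in the Ccnd2 difference was not tested.

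The kinases that D-type cyclins bind gave unlike patterns. Cdk4 had signals of 20505, 25204 and 32386, and all 3 of its probe sets were highest in replicate 9. Cdk6 had 4049, 4151 and 3990 (4063 ± 81), nearly level by its brightest probe set. Its second probe set gave 1475, 3245 and 5835, so the level pattern holds for 1 probe set and not the other. The retinoblastoma gene Rb1, the brake that these kinases release, had 16394, 10152 and 13281 from 1 of 2 probe sets. E2f1, a transcription factor that Rb1 restrains, had 1422, 1288 and 1468.

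Entry into S phase is triggered by E-type cyclins with Cdk2. Ccne1 had signals of 23305, 15989 and 29160 from a probe set ending in _x_at, a name given where probes can also match other sequences. Its other probe set gave 3922, 4525 and 2917, with replicate 9 lowest instead of highest. The direction of Ccne1 in replicate 9 therefore depends on the probe set. Ccne2 had 1172, 1538 and 1571, and Cdk2 had 10564, 9303 and 6621. Replicate 9 was the highest for Ccne2 and the lowest for Cdk2.

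The 10 genes of origin licensing, which prepares DNA for a single round of copying, were all above background. Orc1, a subunit of the origin recognition complex, had signals of 1031, 1014 and 854. Cdc6 and Cdt1 load the helicase onto origins. Cdc6 had 7027, 8679 and 6967, and Cdt1 had 25097, 22000 and 25394. Gmnn encodes geminin, the inhibitor of Cdt1, and had 13792, 9599 and 10719 from its 1 probe set. For Gmnn replicate 3 was the highest, by 1.44 times over replicate 8.

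The MCM genes encode the 6 subunits of the replicative helicase. Mcm2 had signals of 16213, 15781 and 17231 and Mcm6 had 16264, 17903 and 17326, with ranges of 0.13 and 0.14 on the log2 scale. Both were nearly level by these probe sets only. The second Mcm2 probe set gave 13478, 9414 and 7253, and the second Mcm6 probe set above background 10084, 15520 and 9576. Mcm3 had 10387, 11278 and 6857 and Mcm4 had 21718, 25043 and 18599. By every probe set above background, Mcm3 and Mcm4 were lowest in replicate 9, while the highest was replicate 8 or 3. Mcm5 had 21982, 18960 and 28954 and Mcm7 had 34399, 28773 and 39945, both highest in replicate 9. The second Mcm5 probe set was also highest there (5215, 6152 and 10360). Of the 4 Mcm7 probe sets, 2 were highest in replicate 9 and 2 in replicate 3. By their brightest probe sets, the subunit genes did not share 1 order of the 3 samples.

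Promoter windows of the licensing genes show the letters that E2F factors are known to recognise. Promoter sequences were those of RefSeq on build GRCm38.p6, 300 bases each with 250 before and 50 after the start of transcription. Of the 50 genes 40 had a window, and 8 of the 10 licensing genes did. Searched were TTTGGCGC, TTTCCCGC, TTTCGCGC and TTTGCCGC as E2F-type letters, TTTGAA as the core of the cell cycle homology region (CHR) and CCAAT, the site of nuclear factor Y, all on both strands. E2F-type letters were in 7 of 8 licensing windows, the exception being Mcm2. They were in 4.95% of 7926 genes above background with a window and in 2.60% of all 27025 genes of the table. Of the 4 licensing genes whose windows hold such letters more than once, 2 helicase genes are printed, with all matched letters in capitals and the strand that of the gene. They lie at chr8:75109259-75109558 (plus strand) for Mcm5 and chr1:128359656-128359955 (minus strand) for Mcm6.
Mcm5: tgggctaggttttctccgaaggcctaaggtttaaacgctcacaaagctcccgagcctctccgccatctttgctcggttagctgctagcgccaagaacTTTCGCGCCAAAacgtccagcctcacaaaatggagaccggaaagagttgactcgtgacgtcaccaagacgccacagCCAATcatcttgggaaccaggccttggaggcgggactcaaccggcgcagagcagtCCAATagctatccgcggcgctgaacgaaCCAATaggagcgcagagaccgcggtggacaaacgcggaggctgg
Mcm6: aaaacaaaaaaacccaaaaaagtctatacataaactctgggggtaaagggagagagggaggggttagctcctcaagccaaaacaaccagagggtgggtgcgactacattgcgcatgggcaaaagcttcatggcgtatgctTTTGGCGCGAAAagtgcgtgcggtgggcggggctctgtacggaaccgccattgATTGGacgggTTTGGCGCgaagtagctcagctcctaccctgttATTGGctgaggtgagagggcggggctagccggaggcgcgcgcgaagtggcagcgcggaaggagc
In Mcm5 the E2F-type matches overlap at bases 98 to 109 of the window, where the first 250 bases precede the start of transcription, and 3 CCAAT matches follow. In Mcm6 they overlap at bases 141 to 152 and recur at base 204. A match describes the letters and does not show binding.

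The 4 genes of DNA synthesis were above background, Tyms only narrowly. Pcna, the sliding clamp of DNA polymerase, had signals of 36328, 32000 and 39529. Rrm1 and Rrm2 encode the subunits of ribonucleotide reductase, which makes deoxynucleotides. Rrm1 had 18309, 21875 and 17079, and Rrm2 had 46244, 38154 and 43086. A second Rrm1 probe set gave 2289, 2780 and 6863 and so differed in replicate 9, whereas all 3 Rrm2 probe sets were highest in replicate 3. Tyms, the thymidylate synthase gene, had 608, 419 and 583, and its other 3 probe sets were not above it. With the 99th percentile of the background genes in place of the 95th, Tyms was no longer above background.

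The 8 genes of mitotic entry and its kinases were all above background. Of these, 6 were highest in replicate 3, against 32.9% of all genes above background. Ccna2, the cyclin of S phase and G2, had signals of 23185, 17995 and 15666. The mitotic cyclin gene Ccnb2 had 9532, 7957 and 5834, and Cdk1, its kinase, had 13364, 11204 and 8113. These 3 genes had the same order, with replicate 9 lowest, and the highest signal was between 1.48 and 1.65 times the lowest. The second Ccna2 probe set gave 13205, 10222 and 13926 and did not share that order. Plk1, the Polo kinase of centrosomes and spindle assembly, had 3826, 2697 and 2245.

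The Aurora kinases and their partners did not share 1 pattern. Aurka, which acts at the spindle poles, had signals of 5322, 3333 and 3935. Aurkb, the enzyme of the chromosomal passenger complex, had 6390, 6342 and 6339 (6357 ± 29), the smallest range of the 49 genes, and its second probe set gave 2911, 3143 and 2761. Birc5 encodes survivin, a subunit of the same complex, and had 3568, 5866 and 2694, the largest range (1.12). Replicate 8 was the highest for Birc5, which has 1 probe set. Cdc20, the activator of the anaphase-promoting complex, had 34988, 27404 and 42947 from a probe set ending in _x_at. Its other probe sets gave 14278, 10854 and 11877, and 2957, 2253 and 2824, and both were highest in replicate 3.

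Mitotic genes are known to be repressed in resting cells through the CHR, often with CCAAT letters nearby. Of the 21 mitosis genes (those of entry, checkpoint, kinetochore, spindle and cytokinesis) 17 had a promoter window. CHR letters were in 12 of the 17, and all 12 also held CCAAT letters. Both motifs stood together in 5.73% of genes above background and in 7.97% of all genes of the table. CHR letters, with or without CCAAT letters, were in 14.4% and 20.2% of those genes. The windows of 3 genes of mitotic entry and exit are printed to show how the letters are placed. They lie at chr9:70421505-70421804 for Ccnb2, chr4:118437294-118437593 for Cdc20 and chr10:69352863-69353162 for Cdk1, all on the minus strand.
Ccnb2: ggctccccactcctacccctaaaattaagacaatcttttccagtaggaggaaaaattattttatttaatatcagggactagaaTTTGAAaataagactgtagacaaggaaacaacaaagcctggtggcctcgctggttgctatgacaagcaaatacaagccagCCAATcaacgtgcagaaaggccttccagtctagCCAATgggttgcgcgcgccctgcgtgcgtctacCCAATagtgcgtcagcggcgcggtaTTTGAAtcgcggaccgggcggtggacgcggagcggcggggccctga
Cdc20: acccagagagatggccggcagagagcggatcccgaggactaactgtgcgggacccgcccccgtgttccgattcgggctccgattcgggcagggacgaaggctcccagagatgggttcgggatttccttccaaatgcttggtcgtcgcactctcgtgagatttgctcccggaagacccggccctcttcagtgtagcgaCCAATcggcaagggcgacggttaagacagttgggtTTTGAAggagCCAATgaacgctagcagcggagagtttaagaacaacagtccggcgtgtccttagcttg
Cdk1: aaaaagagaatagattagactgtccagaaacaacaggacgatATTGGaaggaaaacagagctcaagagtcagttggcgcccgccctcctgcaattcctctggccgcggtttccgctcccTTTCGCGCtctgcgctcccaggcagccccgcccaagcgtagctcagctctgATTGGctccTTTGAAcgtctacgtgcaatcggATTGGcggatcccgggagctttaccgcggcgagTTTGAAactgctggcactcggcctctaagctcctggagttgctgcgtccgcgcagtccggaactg
The Ccnb2 window holds 3 CCAAT matches between bases 164 and 234, with CHR matches on either side, at bases 84 to 89 and 255 to 260. In Cdc20 a CHR match at bases 233 to 238 lies between CCAAT matches. The Cdk1 window is the 1 of the 17 that also holds E2F-type letters, at bases 120 to 127. The 4 DNA synthesis windows held neither E2F-type nor CHR letters.

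**Figure D2:**
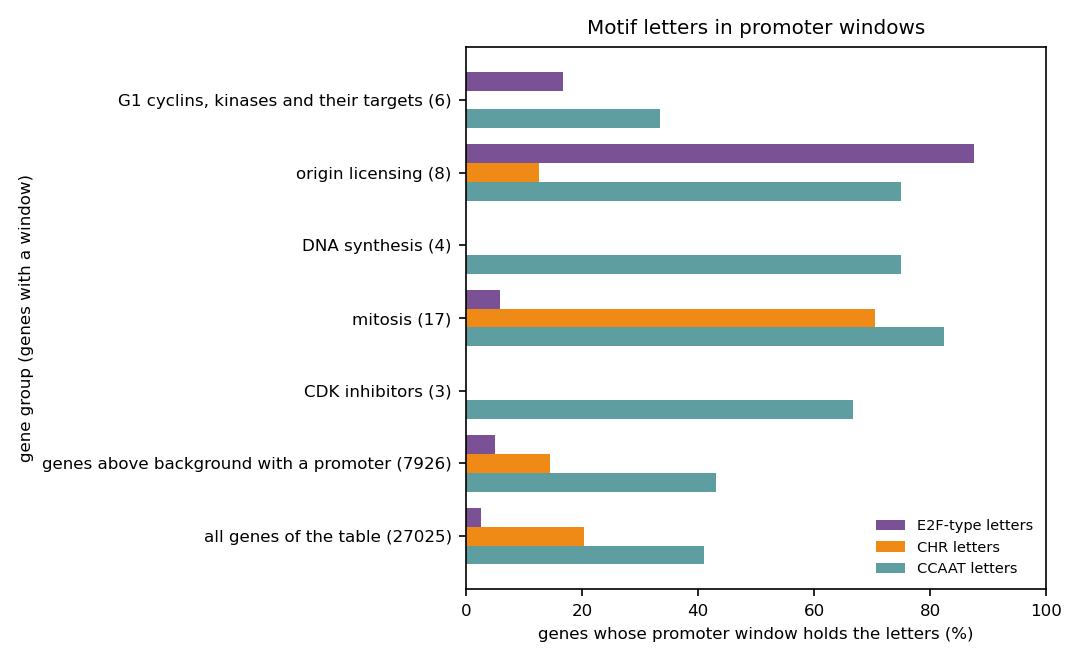
Share of genes (%) whose 300-base promoter window holds E2F-type, CHR or CCAAT letters, for gene groups of the list above genes above background and all genes of the table, with the number of genes with a window in brackets. E2F-type letters stand out in origin licensing (7 of 8) and CHR letters in mitosis (12 of 17).

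All 7 genes of the spindle checkpoint and kinetochore were above background. Of these, 5 were lowest in replicate 9, against 39.4% of all genes above background. The checkpoint holds anaphase back until every chromosome is attached. Bub1, a kinase of that checkpoint, had signals of 5979, 5660 and 3115, and Ttk, the kinase Mps1 that starts it, had 1902, 2356 and 1200. For both, replicate 9 lay well below the other replicates (ranges 0.94 and 0.97). Bub1b had 10201, 9508 and 9898, and Mad2l1, the checkpoint protein that binds Cdc20, had 11518, 9882 and 9965. By these probe sets both were close to level, within 1.17 times. The second Bub1b probe set above background gave 6196, 5831 and 5030, lowest in replicate 9.

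The centromere genes had smaller ranges than Bub1 and Ttk. Cenpa, the histone variant that marks centromeres, had signals of 13711, 14588 and 11607. The kinetochore motor gene Cenpe had 3505, 4835 and 3348, and Cenpf had 9101, 9556 and 8441. All 3 were highest in replicate 8 and lowest in replicate 9. Each rests on 1 probe set above background on all arrays, and none of their dimmer probe sets shared this pattern.

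The 6 spindle and cytokinesis genes were above background too. Kif11, the kinesin that pushes spindle poles apart, had signals of 4015, 3893 and 4173 by its brightest probe set, and 4406, 3738 and 2569 by its second. Kif20a and Kif23 encode kinesins of the central spindle, needed for cells to separate. Kif20a had 4075, 4735 and 2795, and Kif23 had 6075, 4637 and 6318. Tpx2, the activator of Aurka, had 8368, 6885 and 6886. Prc1, which bundles the central spindle, had 10377, 7779 and 7219, with both probe sets highest in replicate 3 and lowest in replicate 9. Nusap1, a microtubule-binding protein gene, had 21320, 15464 and 14414. Replicate 3 was the highest for Prc1 and Nusap1, and for Tpx2 by its brightest probe set, whereas the second above background gave 1735, 2995 and 1728.

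Of the 3 CDK inhibitor genes, 2 were above background. Cdkn1a encodes p21, the inhibitor induced by p53, and had signals of 5214, 3229 and 5009, with replicate 8 lowest. Cdkn2c encodes p18, an inhibitor of Cdk4 and Cdk6, and had 4398, 4440 and 4347 (4395 ± 47), level across the arrays. Cdkn1b encodes p27, which accumulates in resting cells, and had 262, 238 and 868, above background in replicate 9 only. Its second probe set was below background everywhere at 56.6, 86.0 and 217, and was also highest in replicate 9. A dim probe set does not show that the transcript is absent.

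The mitosis genes were most often lowest in replicate 9. After taking off each array's median deviation, their median deviation from the gene's own 3-array mean was 0.11, −0.07 and −0.16 in replicates 3, 8 and 9 (log2, 21 genes). Without replicate 3 the value was −0.07 in replicate 9 and 0.07, the opposite sign, in replicate 8. Replicate 9 was the lowest for 14 of the 21, against 39.4% of all genes above background, and replicate 3 was the lowest for none, against 30.7%. The 14 genes of licensing and DNA synthesis had median deviations of 0.01, −0.12 and 0.05. Of all 49 genes, 23 were highest in replicate 3 (32.9% of all genes above background), 13 in replicate 8 (35.7%) and 13 in replicate 9 (31.4%). The groups by role were set after seeing the data, and with 1 group of 3 samples no test of these differences was made.

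**Figure D3:**
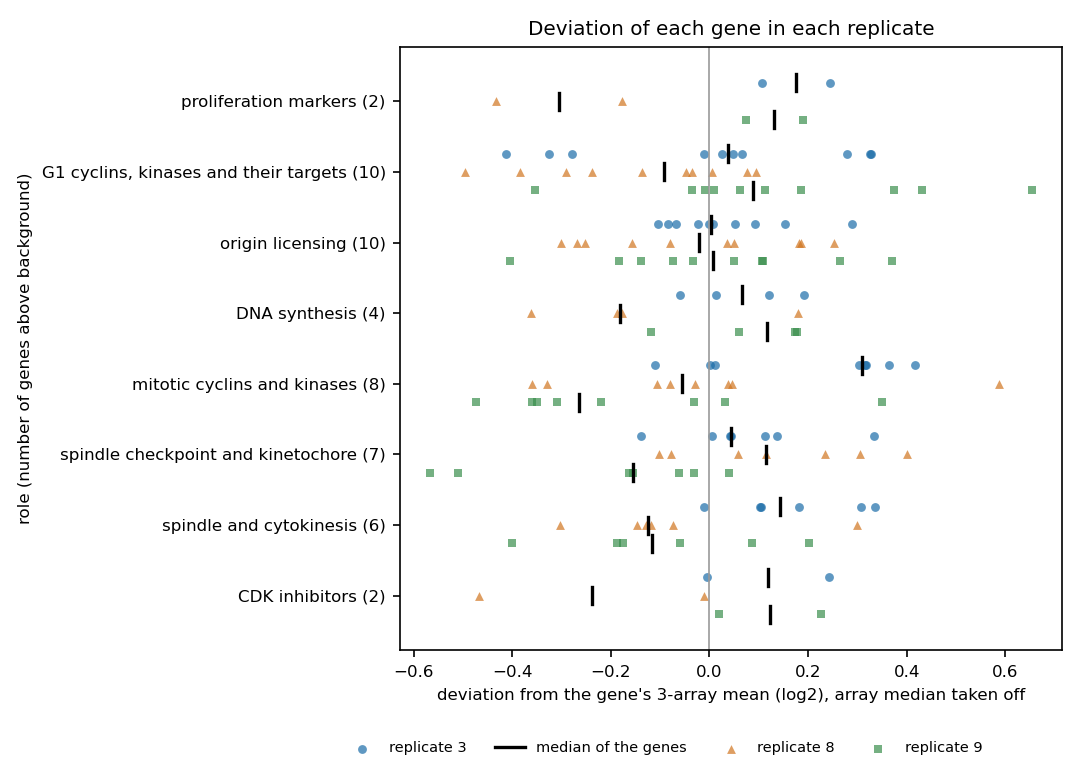
Deviation of each gene above background from its 3-array mean (log2, array median taken off) by role and replicate, with a black bar at the median of the genes. Mitotic cyclins and kinases lie to the right in replicate 3 (median 0.31) and to the left in replicate 9 (median −0.26). The 10 origin licensing genes of the list centre near 0 in all replicates. Roles were set after seeing the data.

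Markers of other cell types also differed between the replicates. The summed signal of the 6 hepatocyte markers over replicates 3, 8 and 9 was 208406, 113160 and 162413, and that of the 5 erythroid markers 157540, 76977 and 117956. The erythroid sum includes Hbb-y and Alas2, genes of red cell precursors, and none of these markers was at 0. All 11 were lowest in replicate 8. Of the 49 cell cycle genes, 22 were lowest in replicate 8 (29.9% of all genes above background). The others were lowest in replicate 9 (23 genes, against 39.4%) or replicate 3 (4 genes, against 30.7%). Summed endothelial markers were 12330, 9666 and 6767, lowest in replicate 9 as most mitosis genes were. The 4 nephron progenitor markers summed to 7043, 11626 and 6079, and the 3 of them above background were all lowest in replicate 9. Those of macrophages were 20183, 11977 and 26311, and those of skeletal muscle 74101, 66273 and 59714. Among the 5 macrophage markers only Csf1r (8111, 5183 and 17559) was highest in replicate 9, and the other 4 were highest in replicate 3. The tissue's own mesenchyme markers summed to 32072, 50680 and 29752 and the urothelial markers to 35140, 41227 and 30208, both highest in replicate 8. Of those above background, 3 of 4 mesenchyme and 3 of 5 urothelial markers were highest there. The others, Tshz2 (10188, 6730 and 6412), Upk1b (2544, 1816 and 938) and Krt19 (6276, 5208 and 3474), were highest in replicate 3. Krt8 gave most of the urothelial sum (20340, 23741 and 17646). Smooth muscle markers summed to 39242, 35742 and 39548, most of it from Acta2 (32411, 27441 and 35287). Actg2 (2841, 3540 and 2250) and Tagln (1928, 1654 and 613), the others above background, were lowest in replicate 9. The part of these cell types in the cell cycle values was not tested.

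The choice of probe set mattered for single genes. More than 1 probe set was above background for 23 genes, and in 7 of them (Bub1b, Ccnd2, Cdk4, Mcm5, Mcm6, Prc1 and Rrm2) all of these were highest in the same replicate. In the other 16 they were not. For 12 of the 50 genes the brightest probe set ended in _x_at or _s_at, and 7 of those in _x_at. Of these 7, 4 were highest in replicate 9 (Ccne1, Cdk4, Mcm5 and Cdc20). Over the whole array, genes read from such probe sets and above background were highest in replicate 9 in 60.7% of 529 cases, beside 29.1% for genes whose probe set name had neither ending. With those 2 kinds left out, the median deviation of the mitosis genes in replicate 9 was −0.15 (20 genes). That of the licensing and DNA synthesis genes was −0.08, the opposite sign to the value above.

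**Figure D4:**
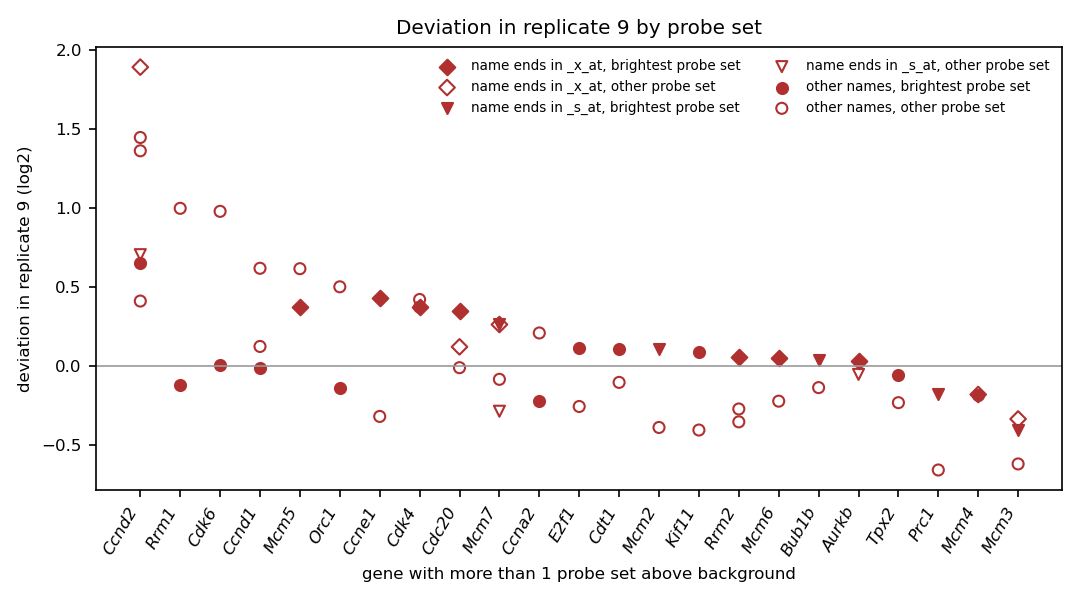
Deviation in replicate 9 (log2, array median taken off) of every probe set above background for the 23 cell cycle genes with more than 1, filled for the brightest and open for the others, with symbols for the ending of the probe set's name. All Ccnd2 probe sets lie above 0 (0.41 to 1.89), while genes such as Ccne1, Rrm1 and Kif11 have probe sets on both sides.

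A list of 151 further cell cycle genes, taken from general knowledge of the pathway, was read in the same way. Of the 146 with a probe set of their own, 133 (91.1%, against 53.6% of all named genes) were above background. These genes too were picked for their part in the cycle, so the share describes the list and is no test. Every gene measured was above it among those of origin licensing and firing (16 genes), the replication fork and nucleotides (24) and the anaphase-promoting complex (15). Named as the genes with the highest means of their roles are Rpa1, a subunit of the single-strand binding protein (34414 ± 1928), the flap nuclease gene Fen1 (20625 ± 2092), and Dbf4, the activator of the Cdc7 kinase (12015 ± 1607). Cks1b and Cks2, small partners of CDKs, had 39596 ± 5636 and 31532 ± 4414. The checkpoint kinase gene Chek1 had 12412 ± 636. The passenger complex genes Incenp (33820 ± 5116) and Cdca8 (32712 ± 3909) and the condensin gene Smc4 (24606 ± 3806) were named in the same way, as were Skp2, Gins4, Kif22, Anapc5, Cdc16 and Btg1. Cdkn1c, the imprinted gene of the CDK inhibitor p57, had 34961, 29562 and 36449.

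The 13 genes of that list not above background on all arrays fall into 2 kinds. Below background on every array were 7, among them the germline cyclin gene Ccna1 (26.5 ± 9.8) and Ccnb3 (24.3 ± 5.7), the inhibitor gene Cdkn2a, which is silent in most embryonic tissue (44.0 ± 26.2), and E2f4 (243 ± 146). The others of these were Mad1l1, Kif14 and Kif15. Above background on 1 or 2 arrays were 6. Of these Foxm1, an activator of mitotic genes, had signals of 705, 455 and 402, and Mybl2, its partner in the same programme, had 657, 285 and 507. Lin9, of the MuvB complex that binds the CHR, had 762, 945 and 463. Rbl2, the gene of the retinoblastoma relative p130, had 1029, 566 and 471, Knl1 had 477, 247 and 427, and Cdkn2b, the gene of p15, had 578, 354 and 279.

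The largest ranges in that list were those of Cdc25b, E2f2, Gadd45a, Ect2 and E2f5. Cdc25b, a phosphatase that activates Cdk1, had signals of 9678, 3647 and 2735 (range 1.82), and E2f2 had 14409, 4701 and 8098 (1.62). Both were highest in replicate 3. Gadd45a, a stress-induced growth arrest gene, had 1196, 426 and 794, with replicate 3 highest as well. Ect2, the exchange factor that starts cytokinesis, had 3187, 4176 and 1528, lowest in replicate 9. E2f5 had 1350, 3400 and 3601, with replicate 3 lowest. In all, 14 of the 133 genes (10.5%) had a range of at least 1, against 14.2% of all genes above background. Replicate 9 was the lowest for 66 of the 133, against 39.4%. By role it was the lowest for 12 of 16 genes of origin licensing and firing and 11 of 22 of spindle, condensation and cytokinesis. For kinetochore and checkpoint it was 10 of 21, and for G2 to M control 4 of 11. In this list a lowest signal in replicate 9 was thus not particular to mitosis.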

How the data were processed

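The deposited values are intensities, 1 linear signal per probe set and array of the Affymetrix Mouse Genome 430 2.0 platform. The submitters' processing notes name GCOS, Affymetrix software. Its version, algorithm and background handling were not given in the sources used here. Per the labels' protocols, total RNA went through 2 rounds of amplification, which starts at the 3′ end of transcripts. The 2% trimmed mean was 1500 on each array after rounding, so the authors' values had been scaled to a common mean, and a level is relative to the rest of its array.

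Of 45101 probe sets, 34958 had 1 gene symbol in the platform annotation, 932 had several and 9211 are not named here. All 50 symbols matched the reference gene table by Entrez ID. Signals were analysed as log2(signal + 1) with Python 3.11.15, pandas 2.3.3 and numpy 2.4.6. The background list had 60 genes, 55 measured, of which 1 (Cela1) was itself above background. The calls and deviations were tested on simulated data. No p-value was computed, since there is 1 group. Members and lists were chosen with earlier results of these data known. Named from the further list were genes not above background on all arrays, the 2 with the highest mean per role (examples of these are given) and the 5 with the largest range. Tried besides were pseudocounts of 16 and 64, quantile normalization, averaging all probe sets per gene, dropping those named _x_at or _s_at, a background at the 99th or the 90th percentile, 2 arrays in place of 3, no exocrine pancreas genes in the background list, no filter, no centring and leaving out each replicate.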

Additional observations from a re-analysis of the deposited data

How the results depend on the processing

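The count of cell cycle genes above background was 48 or 49 under every alternative but 1. With all probe sets of a gene averaged it was 42 of 50, while the share of all named genes fell from 53.6% to 40.3%. The further genes lost were Top2a, Cdk2, Tyms, Aurka, Ttk, Kif23 and Cdkn1a, each of which has at least 1 dim probe set. The share of all named genes was 46.6% at the 99th percentile and at most 59.6%, at the 90th. The count for the further cell cycle genes was between 109, with probe sets averaged, and 137. The count with a range of at least 1 was 2 as reported and 1 with quantile normalization (14.1% of all genes above background). It was 8 of 42 with probe sets averaged (15.1% of all genes). With those named _x_at or _s_at left out it was 4 of 48 (14.3% of all genes). It was 3 with no filter on low values, and between 0 and 1 with a replicate left out (6.37% to 7.65% of all genes). The gene added with no filter was Cdkn1b (range 1.86). The cause of the other moves was not tested, except that 2 arrays give smaller ranges than 3. The median SD was between 0.17 and 0.22 with a replicate left out (0.17 without replicate 8). Median deviations over all 49 genes stayed within 0.10 of 0 in every alternative, and their sign in replicate 9 turned with quantile normalization (0.01) and without replicate 3 (0.03). The groups by role were set after seeing the data. Median deviations of mitosis genes in replicate 9 were between −0.18 and −0.07 with a replicate left out, −0.11 with quantile normalization and −0.08 with probe sets averaged. In replicate 8 their sign turned with probe sets averaged (0.06) and without replicate 3 (0.07). Without replicate 3 the medians of replicates 8 and 9 are mirror images by arithmetic. A turn of sign in 1 of these replicates, here and over all 49 genes, was therefore fixed in advance. Of 798 alternative values for single genes (mean level or range), 661 moved by less than the gene's SD, and 58 of the 137 others came from averaging probe sets. No paired analysis was possible because the series holds 1 group. No depth is given for arrays; signal over background limits Tyms and Cdkn1b.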
